A study of Homo sapiens with 2 samples.

Results

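A set of 10 genes of protein folding and disposal in the endoplasmic reticulum (ER) was selected by gene symbol from an expression array study of NUGC4, an established line of human gastric cancer cells. They are HSPA5, HSP90B1, DNAJB9, HERPUD1, PDIA4, SDF2L1, CRELD2, MANF, HYOU1 and EDEM1, and 9 of these 10 were found among the 14526 genes named in the deposited table. HSP90B1, the ER member of the HSP90 family, was not matched to a probe group and has no value here. The 9 genes have 1 probe group (transcript cluster) each. 1 culture of NUGC4 cells had been transfected with a negative control siRNA and the other with an siRNA against ANO5 (anoctamin 5, one of a family of membrane channels and lipid scramblases), each at 20 nmol/l and 24 h after seeding. The labels name 1 siRNA product against ANO5 and 1 cell line, and each group is 1 array. With 1 array per group there is no spread between replicates, so no error or p-value is given and every difference compares 2 RNA samples only. RNA came from whole cultures, so fewer cells expressing a gene and less RNA per cell cannot be told apart. Values are log2 signals as the authors deposited them, and each difference is the ANO5 siRNA array minus the control array on that scale.

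Proteins that enter the ER are folded by chaperones, which bind exposed hydrophobic stretches, and by enzymes that form disulfide bonds. Proteins that do not fold are moved back to the cytosol and degraded, a route called ER associated degradation (ERAD). When unfolded proteins accumulate, the sensors IRE1 (gene ERN1), PERK (EIF2AK3) and ATF6 start the unfolded protein response (UPR). Cleaved ATF6 and the spliced form of XBP1 then switch on chaperone and ERAD genes through promoter elements called ERSE, ERSE-II and UPRE. The 10 genes are known targets of this kind, and gastric epithelial cells, as secretory cells, rely on them.

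Promoter sequence is shown because ATF6 and XBP1 act through these elements, while the values of the genes on the arrays differed. RefSeq windows from 250 bases before to 50 bases after each gene's start (build GRCh38.p14) were available for all 10 genes. They were searched on both strands for ERSE (CCAAT and CCACG with 9 free bases between them), ERSE-II (ATTGG and CCACG with 1 free base between them) and the UPRE core (TGACGTGG). The runs below read 5′ to 3′ on the gene's strand. Capitals mark exact ERSE matches in HSPA5 and CRELD2 and exact ERSE-II matches in HERPUD1, HYOU1 and SDF2L1. In MANF they mark an ERSE-II with 1 mismatch, and in EDEM1 both copies of CGTGG, the reverse complement of the CCACG that ends both ERSE and ERSE-II. The copies in EDEM1 are not matches to either element. So short a run can occur often, and its share over all windows was not counted.
HSPA5 (chr9:125241376-125241424, minus strand): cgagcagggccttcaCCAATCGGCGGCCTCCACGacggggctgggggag
CRELD2 (chr22:49918539-49918587, plus strand): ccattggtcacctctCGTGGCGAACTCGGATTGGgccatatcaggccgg
HERPUD1 (chr16:56932010-56932050, plus strand): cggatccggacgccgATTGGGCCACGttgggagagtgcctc
HYOU1 (chr11:119057259-119057405, minus strand): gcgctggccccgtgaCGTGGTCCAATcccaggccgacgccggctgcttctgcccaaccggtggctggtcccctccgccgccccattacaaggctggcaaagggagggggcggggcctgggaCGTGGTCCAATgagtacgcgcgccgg
SDF2L1 (chr22:21642099-21642139, plus strand): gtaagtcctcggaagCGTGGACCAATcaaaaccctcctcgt
MANF (chr3:51385163-51385203, plus strand): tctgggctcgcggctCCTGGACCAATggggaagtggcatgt
EDEM1 (chr3:5187533-5187644, plus strand): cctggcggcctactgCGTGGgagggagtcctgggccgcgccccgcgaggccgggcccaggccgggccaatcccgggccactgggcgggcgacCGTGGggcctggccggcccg

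An exact ERSE or ERSE-II was found in 6 of the 10 genes, the 5 named above and HSP90B1, which has 2 copies of ERSE. Among all 35116 windows of this length in the table, from 27305 genes, 0.131% held one. This is a share of windows, not of genes. The 10 genes are known ATF6 and XBP1 targets, so a higher share among them follows from that choice and is not a result of these data. The 2 ERSE-II copies of HYOU1 begin at positions -185 and -79, where -1 is the base before the gene's start, and the outer one overlaps the one exact UPRE core found among the 10 genes, a motif present in 0.729% of all windows. MANF held no exact match. Its site begins at position -113 and carries the substitution G2C, counted from the 5′ end of the reverse complement of ERSE-II. HSPA5 holds a site with the same substitution at position -105, besides its exact ERSE. An ERSE-II with 1 mismatch was present in 1.18% of all windows and an ERSE with 1 mismatch in 1.48%. This search with 1 mismatch was added after the exact one had been seen. The windows of EDEM1, DNAJB9 and PDIA4 held neither element with up to 1 mismatch, which says only that these letters are not in these windows.

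**Figure D1:**
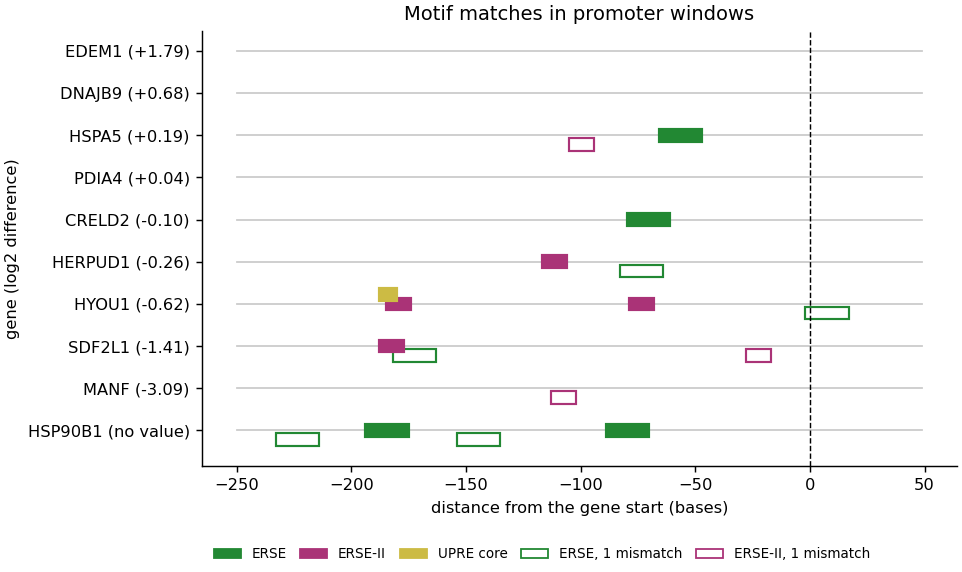
Matches to ERSE, ERSE-II and the UPRE core in the promoter windows of the 10 genes, by distance in bases from the gene's start (filled, exact; open, 1 mismatch), ordered by the log2 difference in brackets. EDEM1, DNAJB9 and PDIA4 carry no match, MANF carries 1 open ERSE-II, and the 5 measured genes with an exact element lie between -1.41 and 0.19.

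ANO5 itself had a log2 signal of 6.83 with control siRNA and 3.67 with its own siRNA, which differ by -3.16. The value in the knockdown lies low on the array's range, which started at 2.13, so background may limit this fold, and with 32 added to the linear signal the difference was -1.70. The array medians over 17345 clusters were 7.69 in the control and 7.68 in the knockdown. Of the epithelial markers 10 of 12 were in the table, all at 7.79 or higher on both arrays, with a log2 of the summed linear signal of 18.7 in the control and 19.0 in the knockdown. The table held 3 of 10 fibroblast markers, 7 of 10 blood markers and 5 of 8 endothelial markers. In that order 1 of 3, 2 of 7 and 1 of 5 had a mean level of at least 6.05, the 33rd percentile over all named genes. The log2 summed signals were 8.28 and 8.16 for fibroblast, 11.1 and 10.2 for blood and 7.97 and 8.33 for endothelial markers, control first. LYZ, which gastric epithelium also makes, was the highest blood marker (10.88 and 9.80), and PTPRC, which defines white blood cells, was 3.68 and 3.49. Their part in the results below was not tested. Genes with a mean at or above 6.05 are called measured here, 9735 in number, and all 9 genes described were among them.

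The 9 genes did not move as a block. MANF was far lower in the knockdown, SDF2L1 and HYOU1 were lower, EDEM1 and DNAJB9 were higher, and HSPA5, PDIA4, CRELD2 and HERPUD1 lay within 1.5-fold. Thus 2 of 9 genes were at least 1.5-fold higher, beside 23.2% of all measured genes, and 3 of 9 were at least 1.5-fold lower, beside 20.1%. At 2-fold, 1 was higher and 2 lower, beside 11.2% and 11.3% of measured genes. With so few members these shares, 22.2% and 33.3% at 1.5-fold, are near the background, and the list as a whole gives no result about direction. The median of the 9 differences was -0.10 and that of all measured genes 0.07. The former moved to -0.20 after loess normalization. The differences spread over 4.88 log2 units, with an SD over the genes of 1.36, which drops to 0.94 without MANF. Over all measured genes the SD was also 0.94, so apart from MANF this spread is that of the background.

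**Figure D2:**
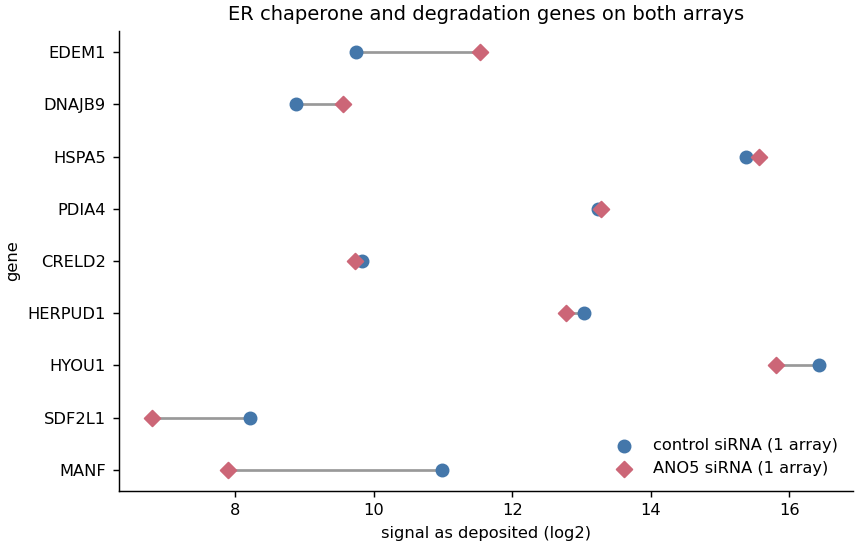
Log2 signal of the 9 genes on the control siRNA array (circles) and the ANO5 siRNA array (diamonds), ordered by their difference. MANF moves from 10.98 to 7.89 and EDEM1 from 9.75 to 11.54, while PDIA4 and CRELD2 nearly coincide.

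MANF, a small ER protein that binds HSPA5, is secreted under ER stress and protects cells from it, had a log2 signal of 10.98 in the control and 7.89 in the knockdown. The difference of -3.09 is 8.51-fold lower and ranked 59th from the lowest of the 9735 measured genes. To show how single genes of like level spread on this pair of arrays, genes whose mean lay within 0.5 of that of MANF were collected. The differences of these 1438 genes had an SD of 1.03, and 15 of them (1.04%) were as low as that of MANF or lower. Its value in the knockdown was above the measured minimum of 6.05. CDNF, the only close relative of MANF in the human genome, was 6.37 and 5.93, a difference of -0.44 at a mean level of 6.15, close to that minimum.

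Set against the other 8 genes, MANF minus their median difference of -0.03 was -3.06 on the log2 scale, an 8.34-fold gap. MANF minus the next lowest gene, SDF2L1, was -1.68. The gap was of similar size against a wider list of 28 other measured ATF6 and XBP1 target genes, whose differences ran from -0.58 to 1.90 with a median of 0.31 and an SD of 0.55. MANF minus their median was -3.40. This list was not matched to MANF in level (mean 9.44). It runs from FICD (6.67) to CALR (17.1), and most of its genes lie above MANF. Spread differed by level on this pair of arrays, with an SD of 0.56 near the level of HYOU1 and 1.03 near that of MANF. How much of the gap in spread goes with level was not tested. None of these 28 was as much as 1.5-fold lower as deposited, but the lowest, SSR3 at -0.58, lies at the threshold, and 1 was lower after quantile, loess or 75th percentile scaling. Both comparisons describe this pair of arrays and have no replicate check. MANF was chosen for them with earlier results of these data known. Its rank, its share among genes of like level and these gaps thus restate 1 low value and are no separate evidence. The 3 genes in the table closest to MANF by Euclidean distance over the 2 arrays were PTTG1 (securin, 10.81 and 7.88, control first), the mitotic kinase AURKB (11.14 and 7.81) and the claudin CLDN12 (10.79 and 7.89). Closeness over 2 arrays reflects only a like level and a like difference.

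The chaperone HSPA5 (BiP, the HSP70 of the ER and a standard marker of the UPR) was 15.37 in the control array and 15.56 after ANO5 siRNA, which differ by 0.19. Of the 127 genes within 0.5 of its level, 43 were as high or higher. HYOU1 (GRP170), a large HSP70 relative that exchanges nucleotide on HSPA5, was 16.43 and 15.81, or 1.54-fold lower. That is just past the threshold, and 7 of the 94 genes of like level were as low or lower. Thus only HYOU1 passed 1.5-fold, while the difference of HSPA5 was small and common at its level, so no direction is read from it.

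DNAJB9 (ERdj4), a J-domain cochaperone that hands proteins to HSPA5 and restrains IRE1, was 8.88 in the control array and 9.56 after ANO5 siRNA, or 1.60-fold higher. In its level range 318 of 1448 genes (22%) were as high, so that this size of difference was common. SDF2L1, which joins an ER J-protein complex that keeps misfolded proteins from aggregating, was 8.21 and 6.80, or 2.66-fold lower, with 107 of 1311 genes of like level (8.16%) as low. Its knockdown value of 6.80 is the lowest of the 9 genes on that array, and background may limit this fold. PDIA4 (ERp72), a disulfide isomerase, was 13.24 and 13.28. CRELD2, an ER protein induced and secreted under stress, was 9.83 and 9.73. Neither differed by more than 0.10 on the log2 scale.

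Of the 2 genes of ERAD, EDEM1 was past the threshold and HERPUD1 was not. EDEM1, a lectin-like protein that extracts misfolded glycoproteins from the folding cycle, was 9.75 in the control array and 11.54 after ANO5 siRNA, or 3.46-fold higher. Its difference of 1.79 ranked 227th from the highest of the measured genes, and 33 of the 1415 genes of like level (2.33%) were as high. HERPUD1, a membrane protein that organises the HRD1 ubiquitin ligase complex, was 13.03 and 12.77, or 1.2-fold lower. EDEM1 and MANF are thus the pair of genes farthest apart, with the other 7 between -1.41 and 0.68.

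**Figure D3:**
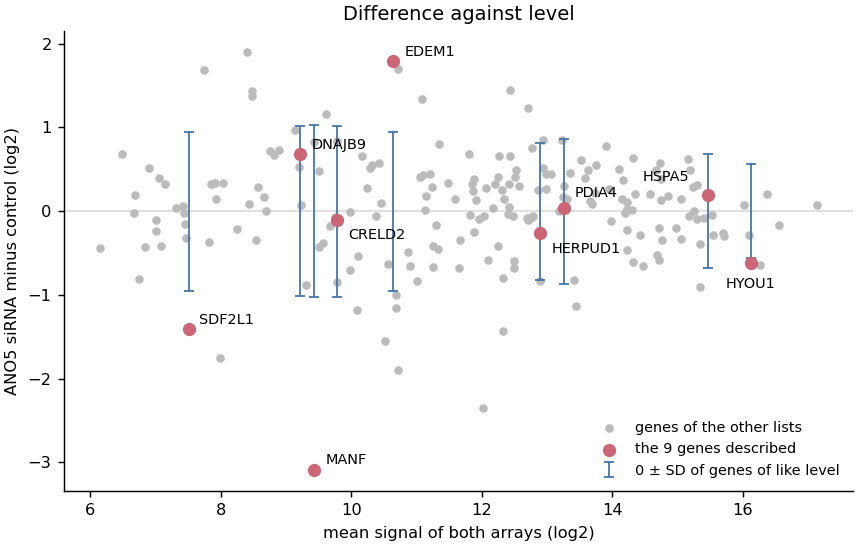
Log2 difference against the mean log2 signal of both arrays for the 9 genes (red), beside measured genes of the other lists (grey); blue bars span 0 ± the SD of the differences of all named genes within 0.5 of each gene's level. MANF (-3.09), EDEM1 (1.79), SDF2L1 (-1.41) and HYOU1 (-0.62) lie outside their bars, and the other 5 inside.

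The 5 measured genes with an exact ERSE or ERSE-II differed by -1.41 to 0.19, with a median of -0.26. The 4 without one were MANF (-3.09), PDIA4 (0.04), DNAJB9 (0.68) and EDEM1 (1.79), which include both extremes. The differences of genes with and without an exact element thus overlapped. Across the table, 21 other measured genes have a window with an exact ERSE or ERSE-II, a group assembled from sequence after the values had been seen. Of them 3 were at least 1.5-fold higher (14.3%, beside 23.2% of all measured genes) and 5 lower (23.8%, beside 20.1%), with a median of -0.17. Among these 21, which include genes with no known link to the ER, are the lectin chaperones CALR (0.07) and CANX (-0.30), the disulfide isomerase PDIA6 (0.14), the translocon-associated SERP1 (0.28), the HSPA5-modifying enzyme FICD (-0.02), the oxidase ERO1B (-0.43), the mannosyltransferase ALG12 (0.33) and XBP1 (0.01). These 8 were named after their values had been seen and lay within 1.5-fold, as did 56.7% of all measured genes.

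The 3 sensors and XBP1 stayed within 1.5-fold. ERN1 was 7.06 and 6.96, EIF2AK3 8.71 and 8.36, ATF6 12.39 and 12.44, and XBP1 11.12 and 11.13, control first. The arrays read transcript level, and neither XBP1 splicing nor ATF6 cleavage was measured. Of 13 measured sensors and factors, 2 were at least 1.5-fold higher and 2 lower (15.4% each, beside 23.2% and 20.1% of all measured genes), with a median of 0.01. The higher ones were ERN2, the epithelial form of IRE1 (1.65-fold), and CREB3 (1.58-fold). The lower ones were NFYA, a subunit of the factor that binds CCAAT in ERSE (1.80-fold), and ATF6B (1.52-fold). The difference of CREB3 was 0.55, within 1.5-fold, after loess normalization, which left 1 higher. In the PERK branch 1 of 12 measured genes was higher and 1 lower (8.33% each, against the same background), with a median of -0.06, and loess made it 2 lower. SESN2 was 1.66-fold higher. ATF4, the factor translated when PERK is active, was 11.29 and 9.74, or 2.93-fold lower. DDIT3 (CHOP), a death-promoting target of ATF4, was 5.52 and 6.16, with a mean of 5.84 that lies below the measured range.

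Other ATF6 and XBP1 targets were more often higher than lower: 6 of 28 (21.4%) by at least 1.5-fold and 0 lower (1 under the scalings named above), beside 23.2% and 20.1% of measured genes. The share higher, at 6 of 28, is near the background. ARFGAP3, a regulator of coat proteins, was 3.73-fold higher, and KDELR3, a receptor that returns escaped ER proteins, 3.25-fold. Of these 28 genes, 23 also stand in another list below or above. Other ERAD genes had 7 of 27 higher and 3 lower (25.9% and 11.1%), with a median of 0.21, and here too the share higher is near the background. ERLEC1, a lectin that reads trimmed glycans, was 2.73-fold and the mannosidase MAN1B1 2.60-fold higher. EDEM3, a relative of EDEM1, and the ubiquitin ligase MARCHF6 were each 1.79-fold lower. The other relative, EDEM2, was 10.41 and 11.75, a difference of 1.34, and was named here after its value was seen as a member of the EDEM family.

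Among other ER chaperones and folding enzymes 2 of 23 were higher and 4 lower (8.70% and 17.4%, beside 23.2% and 20.1% of all measured genes), with a median of 0.07. SERPINH1, the collagen chaperone HSP47, was 5.10-fold lower (13.19 and 10.84), and UGGT1, the glucosyltransferase that senses folding, 2.69-fold. SDF4 was 1.80-fold higher. SDF2, the relative of SDF2L1, was 1.79-fold higher (9.36 and 10.20), so that the relatives SDF2 and SDF2L1 went opposite ways. Disulfide isomerases and oxidases had 1 of 16 higher and 3 lower (6.25% and 18.8%), with a median of -0.07. TMX1 and QSOX1 were each 1.60-fold lower. GPX8 was 1.60-fold higher, a call that rests on low signals of 6.14 and 6.82 and was lost after 32 was added to the linear signal (0.50).

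In N-glycan assembly 1 of 25 genes was higher and 5 lower (4% and 20%, beside 23.2% and 20.1% of all measured genes), with a median of -0.06. Quantile normalization gave 2 higher. ALG2 was 2.23-fold higher, and DPM2 (1.84-fold) and DPAGT1 (1.77-fold) led the lower ones. In the translocon list 5 of 25 were higher and 2 lower (20% and 8%), with a median of 0.30. These counts depended on the scaling: 3 were higher and 5 lower after loess, and 4 were lower after quantile or 75th percentile scaling. The pore subunits SEC61A2 and SEC61A1 were 2.69-fold and 2.35-fold higher. These are close paralogs, so that their probes may share signal. SRP68, part of the signal recognition particle, was 3.73-fold and TRAM2 1.74-fold lower. KDEL receptors and ER calcium genes had 3 of 14 higher and 3 lower (21.4% each, near the background), with a median of 0.40. Besides KDELR3, the calcium pump ATP2A3 was 3.23-fold higher. In contrast, the calcium release channel ITPR3 was 3.36-fold lower, and TMCO1, which has been described as a calcium leak channel, 2.23-fold lower.

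Of 23 measured cytosolic chaperones, 4 were higher and 2 lower (17.4% and 8.70%, beside 23.2% and 20.1% of all measured genes), with a median of 0.18 and a range from -0.66 to 0.83. BAG1 was 1.78-fold and DNAJB6 1.58-fold higher, the latter within 1.5-fold after loess (0.53), which left 1 higher. CCT4 was 1.58-fold and STIP1 1.53-fold lower. Of 13 mitochondrial chaperones, 0 were higher and 2 (15.4%) lower, GRPEL2 (2-fold) and HSPD1 (1.87-fold), with a median of -0.08. None of the measured genes in these 2 lists had a difference as large in size as that of MANF, EDEM1 or SDF2L1.

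**Figure D4:**
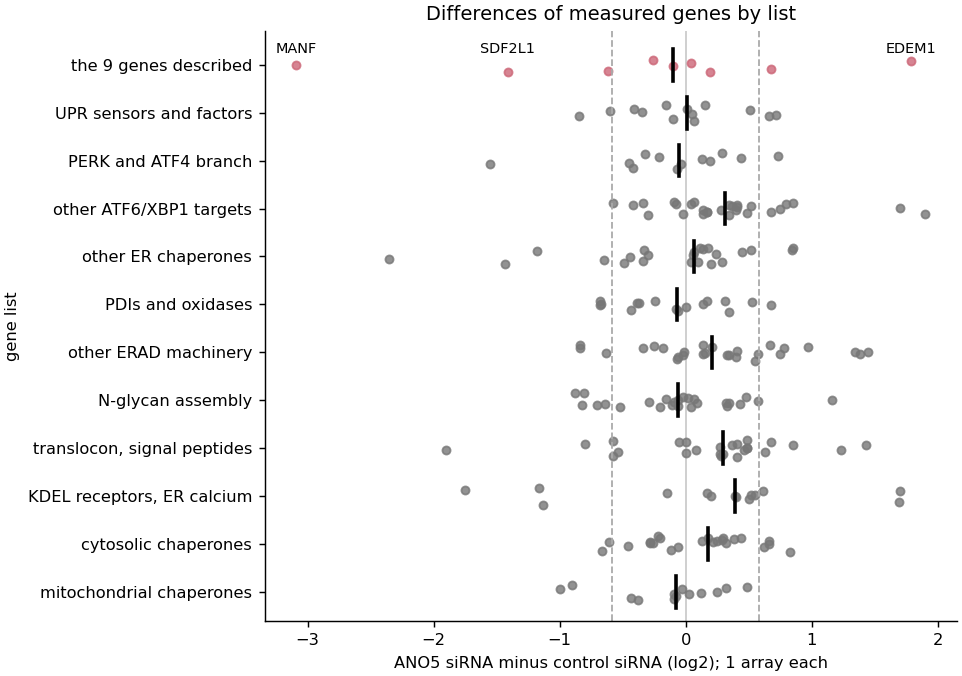
Log2 differences (ANO5 siRNA minus control siRNA) of all measured genes in each list, 1 point per gene, with the list median as a black bar and dashed lines at 1.5-fold; a gene may stand in more than 1 list. MANF (-3.09) is the lowest point of all lists, the next being SERPINH1 (-2.35), and EDEM1 (1.79) is exceeded by ARFGAP3 (1.90) alone.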

How the data were processed

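Biotin-labelled total RNA of each culture was put on 1 array, 2 arrays in all, and the deposited table gives 1 value per array and transcript cluster. The authors' deposited values were taken to be log2 signal from their range (2.13 to 18.15, with 2 decimals). Agilent Feature Extraction 12.0.3.1 is named in the submitters' processing notes, although the clusters are labelled in the way of a different manufacturer. Probe summary, background correction, normalization, log base and genome build: not given in the sources used here. No detection calls were used, so a fold against a low value may be a lower bound.

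Of 17345 clusters, 14544 had 1 gene symbol, 0 several and 2801 none in the platform's annotation. By Entrez identifier all 14544 matched a current RefSeq gene, with 0 changes of symbol. For 16 genes with more than 1 cluster the one with the highest mean was kept. Values were used without further scaling. A gene was called higher or lower at 1.5-fold (log2 difference of 0.585). The members, gene lists and tests were chosen with earlier results of these data known. Named genes were all 10 members, ANO5, up to 2 each way per list, a fixed set of UPR genes and the 3 genes nearest to MANF. Promoter windows came from RefSeq. Protein sequences were not used here. Alternatives were other scalings, the median over clusters, a pseudocount of 32, thresholds of 2-fold and 3-fold and a filter at the 50th percentile. Python 3.11.15, numpy 2.4.6, pandas 2.3.3, statsmodels 0.14.6 (loess span 0.4) and matplotlib 3.10.9 were used.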

Additional observations from a re-analysis of the deposited data

How the results depend on the processing

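MANF stayed between -3.18 and -2.93 and its gap to the median of the other genes between -3.13 and -2.90 under all alternatives run on them. ANO5 ranged from -3.18 to -1.70, the smallest size with a pseudocount of 32. With a threshold of 2-fold 1 member was higher and 2 were lower, beside 11.2% and 11.3% of measured genes. With 3-fold 1 was higher and 1 lower, where 1.5-fold gave 2 and 3, because the threshold itself changed. At the 50th percentile of mean level, which leaves out SDF2L1, 2 of 8 members were higher and 2 lower. The share over all genes was not taken at 3-fold or with this filter, so no result is read from these counts. The median of the 9 genes lay between -0.20 and -0.09, and that of the 8 at or above the 50th percentile was -0.03. All 54 values of single members under the scalings, the median over clusters and the pseudocount kept their call, but centring could hardly move a value and no member has more than 1 cluster. The calls of HYOU1 (-0.585 after quantile normalization) and DNAJB9 (0.594 after loess) were kept only just, at the threshold of 0.585. The largest shift that a scaling gave the measured genes' median was -0.08 (loess). Of 300 such values of other named genes, 4 lost their call, those of CREB3 (0.55), DNAJB6 (0.53), DDIT3 (0.41) and GPX8 (0.50), and 0 changed direction. All 66 values of the list medians stayed within 1.5-fold. Of 132 list counts under these settings, added after the data were seen, 12 moved by over 1.5 times, 7 of these by 1 gene. No value is tested against replicates, since each group is 1 array, which limits the precision. No paired analysis was possible because each group holds 1 array.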
